A study of Mus musculus with 79 samples.

Results

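The genes described here were 10 transcription factors of striatal projection neurons (Isl1, Ebf1, Foxp1, Foxp2, Six3, Sp9, Bcl11b, Zfp503, Ikzf1 and Meis2), chosen by name from the 25899 genes of a table of CPM values (reads of a gene scaled to the total of its library). All 10 were present in the table. Their levels were compared across 79 libraries of ribosome-bound RNA from mouse brain. The libraries came from heterozygous BAC transgenic mice on C57BL/6J that carry the ribosomal protein L10a fused to eGFP, so that the RNA engaged by tagged ribosomes can be pulled down with antibodies to GFP. In the D1 groups the Drd1a promoter drove the fusion, and in the D2 groups the Drd2 promoter did. The 5 groups, written here as receptor and region, held 15 libraries from D1 dorsal striatum, 16 from D2 dorsal striatum, 15 from D1 ventral striatum (nucleus accumbens), 14 from D2 ventral striatum and 19 from D1 prefrontal cortex. Each library pooled 3 mice, with both sexes in a pool where the labels gave them in full. The labels name no treatment or further mutation in any group, and the ages of the mice were not analysed here. The Drd1a and Drd2 promoters also act in cells other than projection neurons, such as cholinergic interneurons for Drd2 and cortical pyramidal cells for Drd1a, so that a group is a receptor-defined population and not a single cell type.

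Projection neurons make up most of the striatum. They arise from the lateral ganglionic eminence of the embryo, and form D1 neurons, which project directly to the basal ganglia output nuclei and express substance P and dynorphin, and D2 neurons, which project to the pallidum and express enkephalin. Isl1, a LIM homeodomain protein, and Ebf1, a helix-loop-helix protein, are known for their part in the differentiation of D1 neurons. Six3, a homeodomain protein, and Sp9, a zinc finger protein, are known for theirs in D2 neurons. Foxp1 and Foxp2 are forkhead repressors, Bcl11b (also called Ctip2) and Zfp503 (Nolz1) are zinc finger proteins of striatal development, Ikzf1 encodes the zinc finger protein Ikaros, best known from lymphocytes, and Meis2 is a homeodomain partner of Pbx proteins.

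Reads assigned to genes numbered 7.35 M to 30.8 M per library (median 17.5 M). The CPM were scaled to larger library totals, 21.4 M to 80.4 M as recovered from the values. One read was therefore worth 0.0124 to 0.0466 CPM. The labelled striatal populations carried their markers. Summed CPM of Drd1a, Tac1 and Pdyn had medians of 442 and 355 in the D1 dorsal and D1 ventral groups, against 30.3 and 37.5 in the D2 dorsal and D2 ventral groups. In D1 prefrontal cortex that sum had a median of 24.3, lower than in either D2 group. Drd1a alone had a median of 16.7 CPM there, against 12.1 in D2 dorsal and 15.1 in D2 ventral striatum. Summed CPM of Drd2, Adora2a, Penk and Gpr6 had medians of 62.8 and 131 in the D1 dorsal and D1 ventral groups, against 3681 and 2175 in the D2 groups. The markers of cortical excitatory neurons (Slc17a7, Neurod6, Neurod2 and Tbr1) summed to medians of 78.9 and 53.4 in D1 dorsal and D1 ventral libraries, 6.10 and 9.21 in the D2 dorsal and D2 ventral libraries, and 497 in prefrontal cortex. In the same order of striatal groups, 4 oligodendrocyte markers summed to medians of 29.6, 17.1, 60.2 and 49.2. In that order 6 GABA interneuron markers summed to 37.2, 28.5, 14.1 and 33.7. The part of these cells in the D1 against D2 values below was not tested. In prefrontal cortex, replicates 1, 2, 6 and 19 stood apart in the summed CPM of the projection neuron markers Ppp1r1b, Pde10a and Rgs9, with 182, 188, 309.7 and 164, while the next highest library of the group had 104 and the median of the group was 61.0. In D2 ventral striatum, replicate 2 had the highest cortical excitatory sum, 66.4, above the second highest of 17.5. In D2 dorsal striatum, replicates 1 and 2 had summed D1 markers of 75.2 and 80.4 CPM against a median of 30.3, and replicate 1 the highest cortical excitatory sum, 27.9 against a second highest of 12.4. In D1 dorsal striatum, replicate 13 had the lowest sum of the projection neuron markers, 1111 against a median of 2098. In bulk samples of this kind, fewer cells of a type and less RNA per cell cannot be told apart.

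To show what lies in front of the factors known from D1 neurons (Isl1 and Ebf1) and from D2 neurons (Sp9 and Six3) and of Ikzf1, the gene with the largest regional difference of the 10 in D1 libraries, the bases just upstream of the RefSeq starts (build GRCm38.p6) are printed, 5′ to 3′ on the strand of the gene. Capitals mark matches, on either strand, to 6 short motifs of the families to which these factors belong: TAAT (homeodomain core), TGTTTAC (forkhead), TGACAG (Meis), CCCNNGGG (Ebf), GGGCGG (Sp) and TGGGAA (Ikzf). Isl1 is shown at chr13:116309690-116309938 (minus strand), Ebf1 at the second of its RefSeq starts, chr11:44619978-44620227 (plus strand), Ikzf1 at both of its starts, chr11:11685675-11685924 and chr11:11689927-11690176 (plus strand), Sp9 at chr2:73271676-73271924 (plus strand) and Six3 at chr17:85620584-85620833 (plus strand).
Isl1: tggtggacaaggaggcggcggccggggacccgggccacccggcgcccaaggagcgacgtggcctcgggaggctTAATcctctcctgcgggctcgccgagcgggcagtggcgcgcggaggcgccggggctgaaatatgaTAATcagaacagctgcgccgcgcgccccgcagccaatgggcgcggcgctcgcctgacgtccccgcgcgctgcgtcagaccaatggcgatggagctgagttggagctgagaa
Ebf1: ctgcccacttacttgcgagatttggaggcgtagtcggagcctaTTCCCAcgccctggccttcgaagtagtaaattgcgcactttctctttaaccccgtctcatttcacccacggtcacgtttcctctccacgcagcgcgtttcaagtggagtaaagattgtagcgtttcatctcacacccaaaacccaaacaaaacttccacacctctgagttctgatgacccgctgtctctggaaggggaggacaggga
Ikzf1, first start: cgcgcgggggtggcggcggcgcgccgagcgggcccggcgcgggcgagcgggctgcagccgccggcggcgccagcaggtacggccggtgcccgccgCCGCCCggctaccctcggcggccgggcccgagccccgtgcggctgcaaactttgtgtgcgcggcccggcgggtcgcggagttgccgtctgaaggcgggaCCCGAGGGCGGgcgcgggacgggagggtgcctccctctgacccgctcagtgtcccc
Ikzf1, second start: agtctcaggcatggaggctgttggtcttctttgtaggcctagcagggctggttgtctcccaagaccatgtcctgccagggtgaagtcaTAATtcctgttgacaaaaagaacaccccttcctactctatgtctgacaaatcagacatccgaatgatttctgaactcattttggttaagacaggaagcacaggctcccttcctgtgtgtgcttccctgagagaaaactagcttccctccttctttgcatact
Sp9: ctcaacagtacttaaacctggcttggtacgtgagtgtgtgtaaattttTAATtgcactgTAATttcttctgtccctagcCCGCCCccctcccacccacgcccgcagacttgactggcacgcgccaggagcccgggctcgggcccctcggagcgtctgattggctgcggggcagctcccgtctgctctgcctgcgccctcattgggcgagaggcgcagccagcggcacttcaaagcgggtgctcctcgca
Six3: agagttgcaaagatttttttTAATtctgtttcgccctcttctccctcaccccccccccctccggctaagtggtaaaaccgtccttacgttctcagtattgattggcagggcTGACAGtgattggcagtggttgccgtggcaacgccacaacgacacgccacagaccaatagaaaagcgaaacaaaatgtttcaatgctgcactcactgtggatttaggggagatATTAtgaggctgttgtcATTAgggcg

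The Isl1 window held TAAT 2 times, the Sp9 window held TAAT 2 times and GGGCGG 1 time, and the Six3 window held TAAT 3 times and TGACAG 1 time. The Ebf1 window shown held only TGGGAA, 1 time. The first Ikzf1 window held CCCNNGGG 1 time and GGGCGG 2 times, and the second held only TAAT, 1 time. Of the 10 genes, 9 matched the RefSeq table, with 13 windows of 250 upstream bases between them. TAAT lay in 8 of these 13 windows and in 54.9% of all 32851 windows of that length. TGACAG lay in 2 of 13 (15.9% of all windows), CCCNNGGG in 3 of 13 (11.8%), GGGCGG in 4 of 13 (32.7%), TGGGAA in 1 of 13 (21.6%) and TGTTTAC in 0 of 13 (3.17%). In the first Ikzf1 window the match to CCCNNGGG overlapped one to GGGCGG, and in the other windows printed no matches of different motifs overlapped. These are matches of letters and no binding was measured.

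The genes lie on 7 chromosomes of GRCm38 in the GENCODE M21 annotation. Isl1 spans chr13:116298281-116309689, Ebf1 chr11:44617317-45008091, Ikzf1 chr11:11685003-11772926, Foxp1 chr6:98925338-99522721, Foxp2 chr6:14901349-15441977, Six3 chr17:85613608-85629302, Sp9 chr2:73271925-73284706, Meis2 chr2:115863064-116065839, Bcl11b chr12:107910403-108003602 and Zfp503 chr14:21983959-21989601. To set genes roughly beside each other, levels were also divided by the kilobases of all annotated exons of a gene. The annotation used for counting is not given, so that this length may not be the one counted. Per kilobase of exon, mean levels spanned a wide range in the D2 dorsal group. Foxp1 was highest there at 49.3 ± 10.4 CPM per kb (SD, n = 16), followed by Bcl11b at 34.2 ± 6.72, Meis2 at 32.8 ± 4.93 and Six3 at 19.3 ± 3.94 CPM per kb. Sp9 reached 5.48 ± 1.25 CPM per kb in the same group, Foxp2 2.99 ± 0.811 and Zfp503 2.38 ± 0.429, while Isl1, Ebf1 and Ikzf1 were at 0.252 ± 0.149, 0.178 ± 0.126 and 0.0972 ± 0.0892 CPM per kb. In the D1 dorsal group Isl1 and Ebf1 reached 3.01 ± 0.535 and 3.15 ± 0.892 CPM per kb (SD, n = 15), and Ikzf1 0.889 ± 0.346 CPM per kb. Six3 shares 106 exonic bases with the antisense gene Six3os1 and 168 with the antisense gene Gm28528. Sp9 shares 270 with Cir1 on the opposite strand. Foxp1 shares 300 with the protein-coding gene Gm20696 and 135 with the microRNA gene Gm49348, both on its own strand. Whether counting used strand is not given in the sources used here, so reads from these stretches cannot be told apart.

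**Figure D1:**
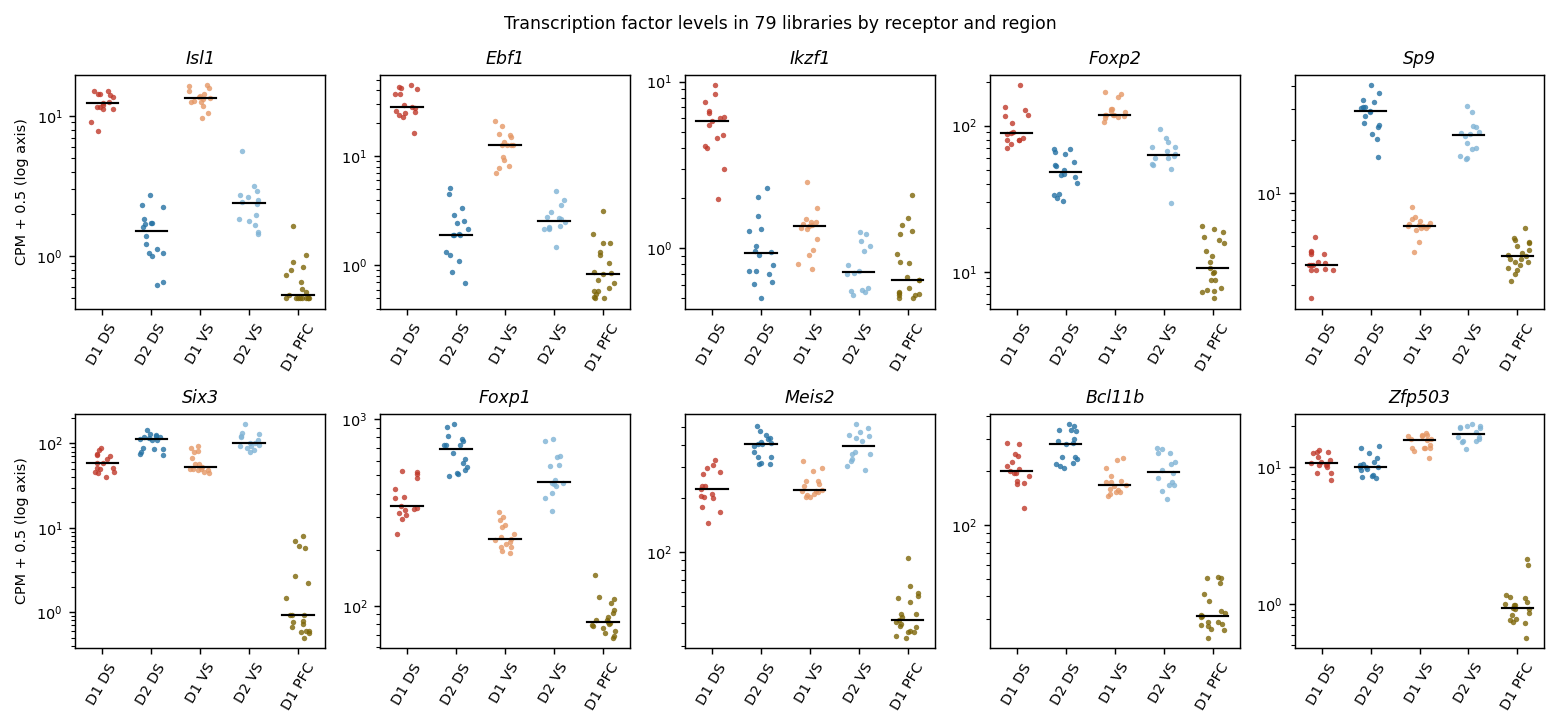
Level of each of the 10 transcription factors in 79 libraries, as CPM plus 0.5 on a log axis, by group (DS, dorsal striatum; VS, ventral striatum; PFC, prefrontal cortex). Each point is a library and each black line a group median. Isl1, Ebf1, Foxp2 and Sp9 separate D1 from D2 libraries in both striatal regions, Ikzf1 is highest in D1 dorsal striatum, and every gene except Sp9 and Ikzf1 is lower in all prefrontal libraries than in all D1 striatal libraries.

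The first comparison set D1 against D2 libraries within each striatal region. In dorsal striatum, 4 of the 10 genes (Isl1, Ebf1, Foxp2 and Ikzf1) were higher in D1, 5 (Sp9, Foxp1, Six3, Meis2 and Bcl11b) were lower, and Zfp503 did not pass the test (limma on log2(CPM + 0.5), Benjamini-Hochberg adjusted p under 0.05 over 11090 genes). The share of all genes called higher in D1 was 12.8%, and the share called lower was 13%. For 4 of the 10 genes (Isl1, Ebf1, Foxp2 and Sp9) no D1 dorsal library overlapped any D2 dorsal library, which held for 1.18% of all genes tested. In ventral striatum, 3 of the 9 genes tested were higher in D1 (Isl1, Ebf1 and Foxp2), 5 were lower (Sp9, Foxp1, Six3, Meis2 and Zfp503) and Bcl11b did not pass the test, where 24.1% of 11410 genes were called higher and 23.6% lower. The groups did not overlap for 5 of these 9 genes, Foxp1 being added to the 4 of the dorsal striatum, and for 1.34% of all genes tested. Ikzf1 was not tested there because only 2 libraries reached 1 CPM. In D2 libraries 8 of 16 dorsal and 12 of 14 ventral ones reached 1 CPM for Isl1, and 11 of 16 and 13 of 14 for Ebf1, so that in both regions these genes passed the filter on low values through the D1 libraries, where they were high.

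Isl1 ranged from 7.33 to 14.7 CPM (median 12.0) in D1 dorsal striatum and from 0.127 to 2.21 CPM (median 1.00) in D2 dorsal striatum. In ventral striatum it ranged from 9.22 to 16.1 CPM (median 13.01) in D1 and from 0.944 to 5.16 CPM (median 1.895) in D2. Every D1 library lay above every D2 library in both regions. The log2 difference (D1 minus D2) was 3.14 ± 0.17 (SE) in dorsal striatum, 8.83-fold on the log2(CPM + 0.5) scale, with an adjusted p of 1.57e-17 (limma), and 2.53 ± 0.14 in ventral striatum, 5.76-fold, with an adjusted p of 3.35e-16. The highest D2 ventral value was that of replicate 9, and the second highest was 2.69 CPM. The highest 2 D2 dorsal values, 2.21 and 1.80 CPM, were those of replicates 1 and 2, the libraries with the highest D1 markers of that group, and without them the dorsal difference was 3.26. Isl1 is also a gene of cholinergic interneurons, whose other markers (5 of 6 listed were in the table) summed to medians of 1.61 CPM in D1 dorsal, 6.72 in D2 dorsal, 2.20 in D1 ventral and 13.4 in D2 ventral striatum. The part of these cells in the Isl1 levels was not tested beyond the relations within groups given further on.

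Ebf1 ranged from 15.9 to 44.1 CPM (median 27.6) in D1 dorsal striatum and from 0.189 to 4.56 CPM (median 1.41) in D2 dorsal striatum. In ventral striatum it ranged from 6.53 to 20.7 CPM (median 12.2) in D1 and from 0.970 to 4.26 CPM (median 2.07) in D2. As for Isl1, no D1 library overlapped a D2 library of its region. Ebf1 had the largest receptor difference of the 10 genes in dorsal striatum, 3.95 ± 0.22 on the log2 scale (15.5-fold, adjusted p 3.18e-17, limma), and in ventral striatum the difference was 2.21 ± 0.16 (4.63-fold, adjusted p 3.11e-13). The highest D2 dorsal value was that of replicate 1, and without replicates 1 and 2 the dorsal difference was 4.05.

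Ikzf1 ranged from 1.47 to 9.01 CPM (median 5.30) in D1 dorsal striatum and from 0 to 1.80 CPM (median 0.431) in D2 dorsal striatum. Only replicate 13, the lowest of the D1 dorsal libraries, fell within the D2 range. The log2 difference was 2.44 ± 0.21 (5.44-fold, adjusted p 1.18e-11, limma). Ikzf1 passed the filter on low values only in comparisons that included D1 dorsal striatum, the group where it was high, so that the filter favoured a difference. In ventral striatum it ranged from 0.245 to 1.98 CPM (median 0.854) in D1 and from 0.0253 to 0.743 CPM (median 0.217) in D2, and 10 of the 15 D1 libraries lay above every D2 library. A fit without the filter gave a log2 difference of 0.73 ± 0.16 there (adjusted p 0.00107, limma). Ikzf1 is also expressed by microglia, whose 5 listed markers summed to medians of 2.15, 2.68, 2.14 and 2.91 CPM in D1 dorsal, D2 dorsal, D1 ventral and D2 ventral striatum, and their part in the Ikzf1 levels was not tested beyond the relations within groups given further on.

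Foxp2 ranged from 69.4 to 188.7 CPM (median 88.0) in D1 dorsal striatum and from 30.0 to 69.2 CPM (median 48.0) in D2 dorsal striatum. In ventral striatum it ranged from 106 to 170.7 CPM (median 118) in D1 and from 29.2 to 95.0 CPM (median 62.6) in D2. The highest D1 dorsal value was that of replicate 13, which also had the lowest Isl1, Sp9 and Ikzf1 values of its group, and the second highest was 133.6 CPM. The D1 and D2 ranges met closely in dorsal striatum without overlap, the lowest D1 library at 69.4 CPM lying just above the highest D2 library at 69.2 CPM. The log2 difference was 1.04 ± 0.14 in dorsal striatum (2.05-fold, adjusted p 2.53e-07, limma) and 1.03 ± 0.11 in ventral striatum (2.04-fold, adjusted p 7.71e-09). Without replicate 13 the dorsal difference was 0.97 ± 0.13. Cortical excitatory markers were also higher in the D1 striatal groups, as given above, and their part in the Foxp2 difference was not tested beyond the relations within groups given further on.

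Sp9 was the gene with the largest difference in favour of D2. It ranged from 2.03 to 5.15 CPM (median 3.43) in D1 dorsal and from 15.5 to 40.2 CPM (median 28.4) in D2 dorsal striatum, and from 4.13 to 7.86 CPM (median 6.03) in D1 ventral and from 15.1 to 30.4 CPM (median 20.8) in D2 ventral striatum. All D2 libraries lay above all D1 libraries in both regions. The log2 difference (D1 minus D2) was −2.78 ± 0.11 in dorsal striatum, 6.85-fold lower in D1 with an adjusted p of 5.12e-21 (limma), and −1.68 ± 0.10 in ventral striatum, 3.20-fold lower with an adjusted p of 2.02e-15. The gene Cir1, which shares 5.35% of the exonic bases of Sp9, had means of 22.3 and 29.7 CPM in D1 and D2 dorsal striatum, and the part of its reads in the Sp9 values was not tested.

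Six3, the other factor known from D2 neurons, ranged from 40.0 to 86.7 CPM (median 57.3) in D1 dorsal and from 72.9 to 143 CPM (median 111) in D2 dorsal striatum. In ventral striatum it ranged from 43.9 to 93.8 CPM (median 51.8) in D1 and from 77.8 to 167 CPM (median 100.6) in D2. The ranges overlapped in both regions, with 11 of 16 D2 dorsal and 9 of 14 D2 ventral libraries above every D1 library. The log2 difference was −0.83 ± 0.12 in dorsal striatum (1.78-fold lower in D1, adjusted p 7.63e-07, limma) and −0.84 ± 0.12 in ventral striatum (1.79-fold lower, adjusted p 1.15e-06). The ventral call was kept in 13 of 13 alternative fits, with values from −0.89 to −0.45. Per kilobase of exon Six3 stood at 10.9 ± 2.74 CPM in D1 dorsal striatum (SD, n = 15), more than Isl1, Ebf1 or Sp9 in that group. Whether the fold of Six3 differed from that of those genes was not tested.

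Foxp1, the forkhead partner of Foxp2, moved in the opposite direction to Foxp2. It ranged from 242 to 529 CPM (median 344) in D1 dorsal and from 496 to 938 CPM (median 691) in D2 dorsal striatum, with 13 of 16 D2 libraries above every D1 library, and the log2 difference was −0.84 ± 0.11 (1.79-fold lower in D1, adjusted p 5.04e-07, limma). In ventral striatum it ranged from 191 to 319 CPM (median 228) in D1 and from 324 to 784 CPM (median 463) in D2, with no overlap, and the log2 difference was −1.09 ± 0.11 (2.13-fold lower, adjusted p 1.95e-09). Foxp1 was the higher of the pair per kilobase of exon in all 5 groups.

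Meis2 ranged from 146 to 329 CPM (median 225) in D1 dorsal and from 312 to 511 CPM (median 404) in D2 dorsal striatum, with 13 of 16 D2 libraries above every D1 library, and the log2 difference was −0.78 ± 0.10 (1.72-fold lower in D1, adjusted p 2.25e-07, limma). In ventral striatum the medians were 223 CPM in D1 (203 to 323) and 391.6 CPM in D2 (289 to 518), and the log2 difference was −0.72 ± 0.09 (1.65-fold lower, adjusted p 1.85e-07). This ventral call was kept in 13 of 13 alternative fits, with values from −0.75 to −0.44. Bcl11b differed less. Its medians were 199 CPM in D1 (124 to 285) and 282 CPM in D2 dorsal striatum (206 to 360.1), a log2 difference of −0.43 ± 0.11 (adjusted p 0.00293), and 166 CPM in D1 (143 to 233) and 197 CPM in D2 ventral striatum (138 to 265), where the difference of −0.21 ± 0.10 did not pass the test (adjusted p 0.0829). Zfp503 had medians of 10.3 CPM (7.64 to 12.8) in D1 and 9.57 CPM (7.85 to 13.8) in D2 dorsal striatum, which did not differ beyond their spread (log2 difference 0.07 ± 0.09, adjusted p 0.62). In ventral striatum its medians were 15.4 CPM (11.2 to 17.4) in D1 and 16.98 CPM (13.2 to 20.1) in D2, and the difference of −0.21 ± 0.08 (adjusted p 0.0384) was lost when any of 13 libraries was left out and when values were scaled to the reads in listed genes (−0.10, adjusted p 0.303).

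**Figure D2:**
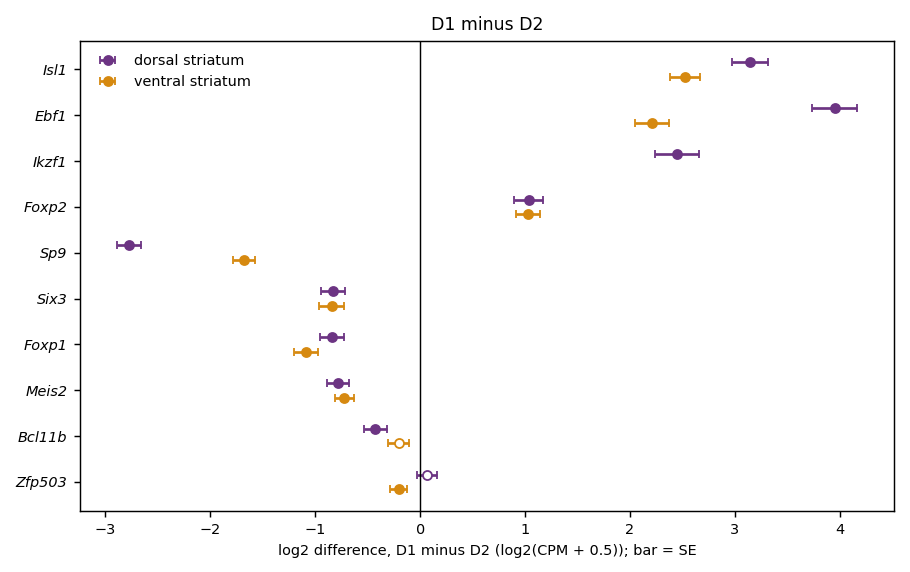
Log2 difference (D1 minus D2) of each gene in dorsal and ventral striatum, with its standard error as a bar. Closed points passed an adjusted p of 0.05 (limma) and open points did not. Isl1, Ebf1, Ikzf1 and Foxp2 lie to the right (higher in D1) and Sp9, Six3, Foxp1 and Meis2 to the left, with Ebf1 at 3.95 and Sp9 at −2.78 in dorsal striatum, and Ikzf1 has no ventral point because it was not tested there.

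The library names carry 4 codes whose meaning the labels do not give (EM, OdP, BdP and JAG), and D2 dorsal striatum held 8 EM and 8 OdP libraries where D1 dorsal striatum held 11 EM and 0 OdP. Within the EM libraries all 9 dorsal and all 8 ventral calls among these genes were kept. The log2 differences there (dorsal, then ventral) were 3.01 and 2.35 for Isl1, 3.53 and 2.02 for Ebf1 and 1.05 and 1.07 for Foxp2. They were −2.66 and −1.55 for Sp9 and −0.75 and −0.93 for Foxp1. In dorsal striatum they were 2.04 for Ikzf1 and −0.32 for Bcl11b (adjusted p 0.0413, limma). Levels in D2 dorsal striatum differed between the codes for some genes. Foxp1 ranged from 496 to 659 CPM in EM and from 724 to 938 CPM in OdP libraries. Bcl11b ranged from 206 to 280 CPM in EM and from 283 to 360.1 CPM in OdP libraries. The ranges given above span both codes. Without replicate 2 of D2 ventral striatum, the library with the highest cortical excitatory markers, the ventral differences were 2.49 for Isl1, 2.19 for Ebf1, 1.02 for Foxp2 and −1.69 for Sp9. The labels do not say whether the libraries of 1 group came from separate cohorts, so that p-values measure the spread between pools of mice.

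The difference between receptors was then compared between regions, as the D1 minus D2 difference in dorsal striatum minus that in ventral striatum. It was larger in favour of D1 dorsally for Ebf1 and Ikzf1 and larger in favour of D2 dorsally for Sp9, and it did not pass the test for the other 7 genes (limma over 11873 genes, of which 1.93% were called higher and 0.707% lower). For Ebf1 the receptor difference was greater in dorsal striatum by 1.74 ± 0.28 on the log2 scale (adjusted p 2.01e-05). For Ikzf1 it was greater by 1.72 ± 0.27 (adjusted p 1.82e-05), but the gene passed the filter only through D1 dorsal striatum, where 15 of 15 libraries reached 1 CPM against 3, 2 and 0 in D2 dorsal, D1 ventral and D2 ventral striatum, so that the filter favoured this difference. A fit without the filter gave the same value with an adjusted p of 4.53e-05 (limma), and edgeR on recovered reads did not call it (1.66, adjusted p 0.0655). For Sp9 the value was −1.10 ± 0.15 (adjusted p 5.47e-07). Foxp2, Six3 and Meis2 had values of 0.01 ± 0.18, 0.01 ± 0.17 and −0.06 ± 0.14, and the value of Isl1 was 0.62 ± 0.22 (adjusted p 0.143), which passed without replicates 1 and 2 of D2 dorsal striatum (0.74 ± 0.21, adjusted p 0.0422, limma).

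Cell type markers moved in the same comparison. All 4 D2 markers (Drd2, Adora2a, Penk and Gpr6) were called lower in it, with a median of −2.01, against a median of 0.01 over all genes tested. Their summed CPM was 36.7 to 95.4 in D1 dorsal and 100.96 to 243 in D1 ventral libraries, and 2563 to 4510 in D2 dorsal and 1530 to 2728 in D2 ventral libraries. None of the 3 D1 markers was called, with a median of 0.54. Of 5 GABA interneuron markers tested, Sst (1.63, adjusted p 0.00109) and Npy (1.23, adjusted p 0.00552) were higher, and the median was 0.76. The part of these markers in the results for Ebf1, Ikzf1 and Sp9 was not tested.

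Dorsal striatum was next set against ventral striatum within each receptor. The 2 regions differ in their connections, the dorsal part being tied to motor control and the nucleus accumbens to reward. Over all genes tested, the median log2 difference (dorsal minus ventral) was −0.12 in both receptors and moved to −0.01 in D1 and 0.01 in D2 with median-ratio scaling, so that values relative to that median are given where they matter. In D1 libraries, 3 of the 10 genes were higher in dorsal striatum (Ebf1, Ikzf1 and Foxp1), 3 were lower (Sp9, Zfp503 and Foxp2) and 4 did not pass, where 10.1% of 11332 genes were called higher and 24.5% lower (1144 of 3918 calls were higher, and 1663 of 3299 with median-ratio scaling). In D2 libraries, 3 of 9 genes tested were higher in dorsal striatum (Bcl11b, Sp9 and Foxp1), 3 were lower (Zfp503, Isl1 and Foxp2) and 3 did not pass, where 7.93% of 11187 genes were called higher and 20.6% lower (887 of 3189 calls were higher, and 1398 of 2725 with median-ratio scaling). For 0 of the 10 genes in D1 and 0 of the 9 in D2 were the regions free of overlap, as were 2.65% and 1.46% of all genes tested.

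Ebf1 had a median of 27.6 CPM in D1 dorsal and 12.2 CPM in D1 ventral striatum, and 14 of the 15 dorsal libraries lay above every ventral library. The log2 difference was 1.30 ± 0.15 (2.46-fold, adjusted p 1.79e-08, limma). In D2 libraries the medians were 1.41 and 2.07 CPM, and the difference of −0.44 ± 0.23 did not pass (adjusted p 0.147). Ikzf1 showed the largest regional difference of these genes, with medians of 5.30 CPM in D1 dorsal and 0.854 CPM in D1 ventral striatum, 14 of 15 dorsal libraries above every ventral one, and a log2 difference of 2.05 ± 0.18 (4.15-fold, adjusted p 2.87e-11). In D2 libraries Ikzf1 had medians of 0.431 and 0.217 CPM and was not tested under the filter. Without the filter its difference there was 0.34 ± 0.20 (adjusted p 0.267).

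Isl1, in contrast to Ebf1, did not differ between the D1 regions beyond its spread. Its D1 medians were 12.0 CPM dorsally and 13.01 CPM ventrally, with a log2 difference of −0.13 ± 0.09 (adjusted p 0.307, limma) that became −0.01 relative to the median of all genes. In D2 libraries Isl1 was lower dorsally, with medians of 1.00 and 1.895 CPM and a log2 difference of −0.74 ± 0.20 (1.67-fold, adjusted p 0.00562). The cholinergic markers were also lower in D2 dorsal than D2 ventral striatum (6.72 and 13.4 CPM), and 2 of the 4 tested were called lower, none higher. Within the 8 dorsal and 5 ventral OdP libraries the Isl1 difference was −0.60 ± 0.28 (adjusted p 0.156), and within EM libraries −0.83 (adjusted p 0.0451).

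Sp9 differed between the regions in opposite directions in the 2 receptors. In D1 libraries it was lower dorsally, with medians of 3.43 and 6.03 CPM, 13 of 15 ventral libraries above every dorsal one, and a log2 difference of −0.69 ± 0.09 (1.61-fold lower, adjusted p 2.73e-07, limma). In D2 libraries it was higher dorsally, with medians of 28.4 and 20.8 CPM, overlapping ranges and a log2 difference of 0.41 ± 0.12 (1.33-fold, adjusted p 0.00902). That D2 call was lost within EM libraries alone (0.41, adjusted p 0.0889) and OdP libraries alone (0.36, adjusted p 0.0666), where the value itself changed little. The D2 markers had the same pattern of levels, and their part in it was not tested.

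Foxp1 was higher dorsally in both receptors, with log2 differences of 0.64 ± 0.10 in D1 (1.56-fold, adjusted p 7.09e-06, limma) and 0.39 ± 0.12 in D2 (1.31-fold, adjusted p 0.0139). Its D1 medians were 344 and 228 CPM, with 11 of 15 dorsal libraries above every ventral one, and its D2 medians were 691 and 463 CPM, with 3 of 16. Zfp503 was lower dorsally in both, with log2 differences of −0.48 ± 0.08 in D1 (1.40-fold, adjusted p 9.82e-06) and −0.76 ± 0.09 in D2 (1.69-fold, adjusted p 8.05e-08). Its medians were 10.3 and 15.4 CPM in D1 and 9.57 and 16.98 CPM in D2, and 13 ventral libraries of each receptor lay above every dorsal one. The general projection neuron markers Ppp1r1b, Pde10a and Rgs9 were called higher dorsally in both receptors, 3 of 3 in each, with median log2 differences of 0.48 in D1 and 0.78 in D2. Their summed CPM was 1111 to 2604 in D1 dorsal (median 2098) and 1201 to 1454 in D1 ventral libraries (median 1332), and 1076 to 2833 in D2 dorsal (median 2428) and 870.0 to 1632 in D2 ventral libraries (median 1351). The part of these markers in the regional values of Foxp1 and of the other genes higher dorsally was not tested.

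Foxp2 was lower dorsally in both receptors, with log2 differences of −0.38 ± 0.11 in D1 (adjusted p 0.00744, limma) and −0.39 ± 0.14 in D2 (adjusted p 0.0355), and relative to the median of all genes these were −0.26 and −0.27. Without replicate 13 of D1 dorsal striatum the D1 difference was −0.45 ± 0.09 (adjusted p 0.000284). Both calls were lost with median-ratio scaling (−0.27, adjusted p 0.0728, in D1, and −0.25, adjusted p 0.236, in D2) and with edgeR on recovered reads. The D2 call was also lost when any of 10 libraries was left out. Bcl11b was higher dorsally in D2, by 0.45 ± 0.11 (1.37-fold, adjusted p 0.00158), and its D1 difference of 0.23 ± 0.10 did not pass (adjusted p 0.0596) except with median-ratio scaling (0.34, adjusted p 0.00864), with the name code as a covariate (0.20, adjusted p 0.0164) and with edgeR (0.35, adjusted p 0.00582), and when any of 6 libraries was left out (up to 0.28, adjusted p 0.0102). Six3 and Meis2 had differences of −0.02 ± 0.13 and −0.06 ± 0.10 in D1 and −0.03 ± 0.11 and 0.00 ± 0.10 in D2, and 0 of these 4 passed. The labels do not say whether dorsal and ventral libraries came from the same mice.

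**Figure D3:**
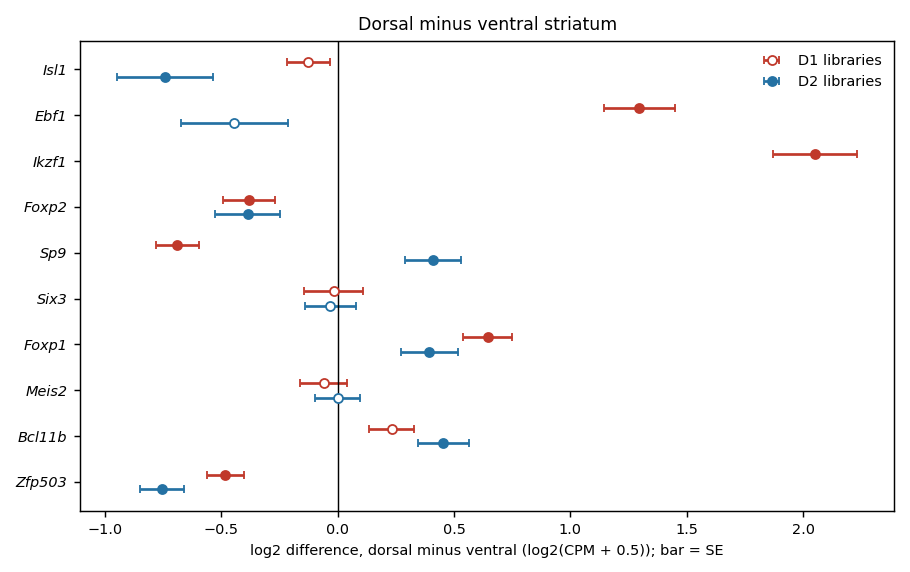
Log2 difference (dorsal minus ventral striatum) of each gene in D1 and D2 libraries, with its standard error as a bar. Closed points passed an adjusted p of 0.05 (limma) and open points did not. Ebf1 (1.30) and Ikzf1 (2.05) stand to the right in D1 libraries, Sp9 lies left of 0 in D1 (−0.69) and right of it in D2 (0.41), and Zfp503 and Foxp2 lie left of 0 in both.

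The last comparison set D1 prefrontal cortex against D1 striatum. The Drd1a promoter is known to act in pyramidal cells of the cortex, mainly in deep layers. Whether tissue of the striatum contributed to replicates 1, 2, 6 and 19, the prefrontal libraries with the highest projection neuron markers, was not tested, and values without them are given beside each of the 10 genes. Against dorsal striatum, 9 of the 10 genes were lower in prefrontal cortex, 0 were higher and Sp9 did not pass, where 22.5% of 11654 genes were called lower and 32.3% higher. Against ventral striatum, all 9 genes tested were lower, where 35.1% of 11749 genes were called lower and 27.7% higher. Isl1, Ebf1, Six3, Zfp503 and Ikzf1 reached 1 CPM in 1, 4, 6, 2 and 2 of the 19 prefrontal libraries, so that each passed the filter through the striatal libraries, where it was high. Of the other 5 genes, 4 were lower against dorsal and 5 against ventral striatum. The groups did not overlap for 8 of the 10 genes against dorsal striatum (10.5% of all genes tested), the exceptions being Sp9 and Ikzf1, and for 8 of the 9 against ventral striatum (12.6% of all genes tested), the exception being Sp9.

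Six3 ranged from 0 to 7.48 CPM (median 0.417) in prefrontal cortex, where it was below 3 reads in 1 of 19 libraries. The log2 difference (prefrontal minus striatum) was −5.45 ± 0.33 against dorsal striatum (adjusted p 1.02e-17, limma) and −5.47 ± 0.33 against ventral striatum (adjusted p 4.63e-18). Replicates 1, 2, 6 and 19, which had the highest projection neuron markers, also had the 4 highest Six3 values, 6.40, 5.65, 7.48 and 5.23 CPM, and the next highest prefrontal library was at 2.19 CPM. Without these 4 libraries the differences were −6.07 ± 0.19 and −6.08 ± 0.19.

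Isl1 ranged from 0 to 1.13 CPM (median 0.029) in prefrontal cortex, with 10 of the 19 libraries below 3 reads, and the log2 differences were −4.28 ± 0.14 against dorsal and −4.40 ± 0.13 against ventral striatum (adjusted p 6.77e-26 and 4.14e-28, limma). These fitted values depend on the added 0.5 CPM where libraries are at 0. Ebf1 ranged from 0 to 2.65 CPM (median 0.327) and differed by −5.07 ± 0.20 and −3.77 ± 0.21 (adjusted p 2.53e-23 and 1.74e-19). For both genes the highest library was replicate 6. Without the 4 libraries the values were −4.46 and −4.59 for Isl1 and −5.36 and −4.06 for Ebf1.

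Zfp503 ranged from 0.0698 to 1.63 CPM (median 0.444) in prefrontal cortex and differed by −3.48 ± 0.13 against dorsal and −3.96 ± 0.12 against ventral striatum (adjusted p 1.80e-24 and 1.71e-27, limma). Ikzf1 ranged from 0 to 1.60 CPM (median 0.143), overlapped the lowest D1 dorsal library and differed by −2.77 ± 0.20 from dorsal striatum (adjusted p 1.96e-15). Against ventral striatum, where 4 libraries of the 2 groups together reached 1 CPM and the filter left it out, a fit without the filter gave −0.72 ± 0.19 (adjusted p 0.00167). Without the 4 libraries the values were −3.64 and −4.12 for Zfp503 and −2.95 against dorsal striatum for Ikzf1. These 2 genes, with Isl1, Ebf1 and Six3, had prefrontal medians under 1 CPM.

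The other 5 genes were measured at higher levels in prefrontal cortex. Foxp2 had a median of 10.1 CPM there (6.08 to 19.9) and differed by −3.10 ± 0.16 against dorsal and −3.48 ± 0.14 against ventral striatum (adjusted p 2.20e-20 and 4.36e-24, limma). Bcl11b, which also marks subcerebral projection neurons of the cortex, had a median of 30.7 CPM (23.1 to 50.6) and differed by −2.60 ± 0.11 and −2.37 ± 0.10 (adjusted p 2.51e-22 and 3.83e-23). Meis2 had a median of 41.4 CPM (32.8 to 92.8) and differed by −2.33 ± 0.12 and −2.39 ± 0.10 (adjusted p 4.46e-20 and 9.98e-23). Foxp1 had a median of 81.8 CPM (67.2 to 146) and was the gene with the smallest of the differences that passed against dorsal striatum, −2.11 ± 0.10, and differed by −1.46 ± 0.09 against ventral striatum (adjusted p 1.14e-20 and 2.33e-18). Without the 4 libraries the values against dorsal and ventral striatum were −3.29 and −3.67 for Foxp2, −2.76 and −2.52 for Bcl11b, −2.44 and −2.49 for Meis2 and −2.22 and −1.58 for Foxp1.

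Sp9 was the exception. Its prefrontal levels, 2.66 to 5.82 CPM (median 3.91), overlapped those of D1 dorsal striatum (2.03 to 5.15 CPM), with a log2 difference of 0.14 ± 0.10 (adjusted p 0.218, limma). Against D1 ventral striatum it was lower, with a log2 difference of −0.54 ± 0.09 (1.46-fold, adjusted p 7.02e-07), with 11 of 15 ventral libraries above every prefrontal one. Without the 4 libraries the values were 0.14 and −0.55. Sp9 is also known from GABA interneurons of the cortex. The summed CPM of 6 interneuron markers (Sst, Npy, Pvalb, Vip, Lhx6 and Nos1) was 98.8 to 260.5 in prefrontal cortex (median 164), 21.0 to 59.6 in D1 dorsal striatum (median 37.2) and 23.4 to 45.4 in D1 ventral striatum (median 28.5). Their part in the Sp9 level was not tested.

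**Figure D4:**
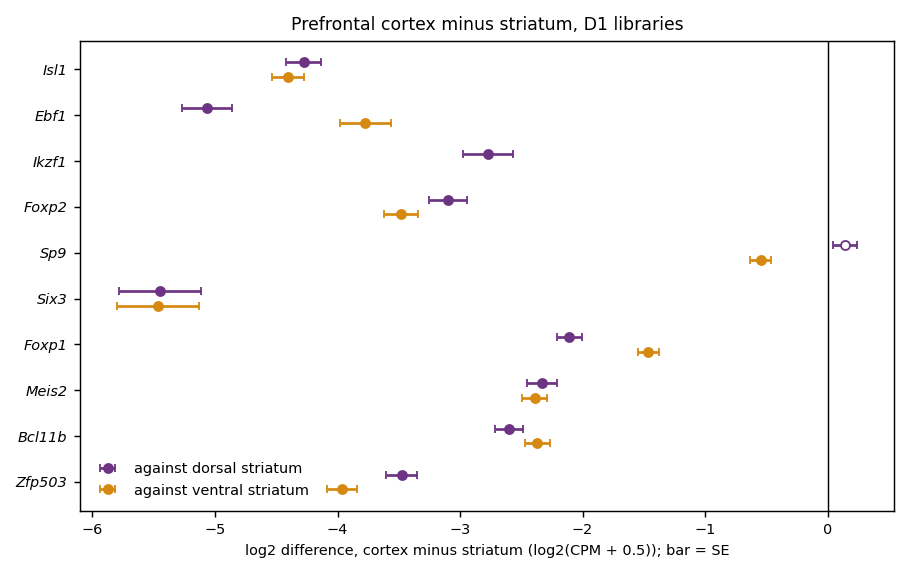
Log2 difference (prefrontal cortex minus striatum) of each gene in D1 libraries, against dorsal and against ventral striatum, with its standard error as a bar. Closed points passed an adjusted p of 0.05 (limma) and open points did not. Six3 lies farthest left at −5.45 and −5.47, Sp9 lies near 0 at 0.14 and −0.54, and Ikzf1 has no ventral point because it was not tested there.

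Ordered by group median, the 10 genes fell into distinct profiles. Isl1 ran from D1 ventral through D1 dorsal, D2 ventral and D2 dorsal striatum to prefrontal cortex, and only the step from D1 dorsal to D2 ventral was free of overlap. Ebf1 ran from D1 dorsal through D1 ventral, D2 ventral and D2 dorsal striatum to prefrontal cortex, with no overlap only at the step from D1 ventral to D2 ventral. Ikzf1 ran from D1 dorsal through D1 ventral, D2 dorsal and D2 ventral striatum to prefrontal cortex, and all 4 steps overlapped. Sp9 ran from D2 dorsal through D2 ventral, D1 ventral and prefrontal cortex to D1 dorsal striatum, and only the step from D2 ventral to D1 ventral was free of overlap. In Foxp1, Six3 and Meis2 both D2 groups stood above both D1 groups, and in these 3 genes and in Foxp2, Bcl11b and Zfp503 only the last step, to prefrontal cortex, was free of overlap.

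Among 12334 genes, those whose 5 group means on the log2 scale lay closest to a gene's own were found by the root-mean-square difference after centring. For Isl1 and Ebf1 the closest 2 were the same, Tac1, which encodes substance P, and Slc35d3 (0.24 and 0.40 for Isl1, 0.32 and 0.36 for Ebf1). Sp9 was closest to Ptprm (0.17) and A830012C17Rik (0.28), Foxp1 to Phex (0.06) and Flrt3 (0.14), and Foxp2 to Adra2b and Fam40b (0.31 each). Six3 had no close match, its nearest being Sh3rf2 (0.55) and Gng7 (0.57), a G protein subunit. Bcl11b was closest to Htr1b (0.07), a serotonin receptor, and Pou3f1 (0.08), Meis2 to Lrrc1 (0.10) and Epyc (0.12), Zfp503 to Unc13c and Filip1 (0.19 each), and Ikzf1 to Gpr139 (0.34) and Cacng1 (0.46). These are descriptions over 5 group means.

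Within groups, 19 relations were computed across libraries (Isl1 with cholinergic markers and with Ebf1, Foxp2 with cortical excitatory markers, Six3 with Sp9, and Ikzf1 with microglial markers), and 0 had an adjusted p under 0.05 for Pearson's r (two-sided permutation test, 100000 resamples, Benjamini-Hochberg). By Spearman's rho, Ikzf1 and the microglial sum in D2 dorsal striatum passed, with rho 0.77 (permutation p 0.00085, adjusted p 0.0161, n = 16) beside r = 0.55 (p 0.0282, adjusted p 0.136). Its r was 0.64 without the 2 libraries farthest from the median of the sum, and within the 8 EM libraries r was 0.84 (exact permutation p 0.0239, adjusted p 0.149). In D1 dorsal striatum, where Ikzf1 was highest, the same relation had r = 0.49 (permutation p 0.0609, adjusted p 0.193) and rho 0.37 (adjusted p 0.476), with r = 0.25 without the 2 farthest libraries. In D1 ventral striatum it had r = 0.51 (permutation p 0.0527, adjusted p 0.193) and in D2 ventral striatum r = 0.60 (permutation p 0.0224, adjusted p 0.136), falling to 0.24 and 0.38 without the 2 farthest libraries, and in prefrontal cortex r = −0.17 (adjusted p 0.655). Isl1 and Ebf1, both high in D1 libraries, had r = −0.63 in D1 ventral striatum (permutation p 0.0112, adjusted p 0.136, rho −0.61, adjusted p 0.104) and r = −0.31 in D1 dorsal striatum (adjusted p 0.431). Isl1 and the cholinergic sum had r between −0.36 and 0.38 over the 4 striatal groups, with adjusted p from 0.377. Within the 8 EM libraries of each D2 group the signs were opposite, with r = −0.78 in D2 dorsal (exact permutation p 0.0164, adjusted p 0.149) and 0.70 in D2 ventral striatum (exact permutation p 0.0258, adjusted p 0.149). Foxp2 and the cortical excitatory sum had r = −0.31 in D1 dorsal (adjusted p 0.431) and −0.55 in D1 ventral striatum (adjusted p 0.136), and within EM libraries −0.27 and −0.36 (adjusted p 0.575 and 0.501). Without the 2 farthest libraries these were −0.64 and −0.59 (adjusted p 0.128 and 0.134).

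Family members of the 10 genes were compared in the same fits, with 9 or 10 of the 20 listed paralogs passing the filter on low values. In dorsal striatum 1 of 10 was higher and 2 were lower in D1 than D2, near the 12.8% and 13% of all genes, with a median log2 difference of −0.10 against 0.02 over all genes tested. Foxp4, another forkhead gene of the Foxp group, was higher in D1, as Foxp2 was, with medians of 8.36 and 4.17 CPM dorsally (log2 difference 1.08, adjusted p 0.000473, limma) and 12.3 and 6.19 CPM ventrally (1.03, adjusted p 8.3e-06). Ikzf2 (Helios), a relative of Ikzf1, was lower in D1 dorsal striatum, with medians of 0.614 and 1.93 CPM (−1.22, adjusted p 1.9e-07), the opposite direction to Ikzf1. It reached 1 CPM in 3 of 15 D1 and 16 of 16 D2 dorsal libraries and so passed the filter through the D2 group, where it was high. Meis1 was lower in D1 dorsal striatum, with medians of 4.91 and 12.7 CPM (−1.26, adjusted p 2.7e-09), as Meis2 was. In ventral striatum Meis1 had medians of 2.50 and 2.79 CPM, a difference that did not pass (−0.07, adjusted p 0.72), and the difference between the regions passed for Meis1 (−1.19, adjusted p 7.8e-05) and Ikzf2 (−1.004, adjusted p 0.0102). Meis1 was higher in D2 dorsal than D2 ventral striatum (1.98, adjusted p 5e-13), Ikzf2 was lower in D1 dorsal than D1 ventral striatum (−1.03, adjusted p 2.4e-07), and Ikzf3 (Aiolos), another relative of Ikzf1, was higher in D1 dorsal than D1 ventral striatum, with medians of 2.39 and 0.742 CPM (1.08, adjusted p 6e-05). Ikzf3 reached 1 CPM in 13 of 15 D1 dorsal and 4 of 15 D1 ventral libraries, so that the filter favoured that difference. Ikzf2 reached 1 CPM in 3 of 15 D1 dorsal and 15 of 15 D1 ventral libraries, so that the filter favoured its regional difference too. In the test of the difference between the regions, Ikzf2 likewise passed the filter through groups other than D1 dorsal striatum. In prefrontal cortex against dorsal striatum, Sp8 (1.93, adjusted p 3.6e-15) and Zfp703 (1.30, adjusted p 4.5e-12) were higher and Meis1 lower (−2.58, adjusted p 3.9e-15). Sp8, the closest relative of Sp9, reached 1 CPM in 18 of 19 prefrontal and 0 of 15 D1 dorsal libraries and passed the filter through prefrontal cortex. Meis1, in turn, passed the filter through D1 dorsal striatum, where it was high.

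Of 19 listed cofactors, partners and further striatal factors, all tested, 3 were higher and 4 lower in D1 dorsal than D2 dorsal striatum (12.8% and 13% of all genes), and 6 were higher and 6 lower in ventral striatum (24.1% and 23.6% of all genes). Zfp521, a zinc finger protein known as a partner of Ebf1, was higher in D1 as Ebf1 was, with medians of 12.2 and 3.55 CPM dorsally (log2 difference 1.74, adjusted p 3.4e-11, limma) and 13.1 and 5.19 CPM ventrally (1.00, adjusted p 5.6e-07). In prefrontal cortex against dorsal striatum, 12 of the 19 were lower and 5 higher (22.5% and 32.3% of all genes), with a median of −0.65 against 0.05 over all genes tested. The retinoic acid receptor gene Rarb and its partner Rxrg, whose pathway acts in striatal development, had the most negative values of the list, with log2 differences of −4.07 and −4.17 (adjusted p 1.4e-23 and 8.8e-21). Lower by 2-fold or more were also Foxo1 (−3.27), Pbx3 (−2.73), Zfp521 (−2.46), Tle1 (−1.44), Tshz1 (−1.36), Tle4 (−1.26) and Lmo3 (−1.18), with adjusted p of 1.3e-10 or less (limma). Mef2c and Ldb2, the second a binding partner of LIM homeodomain proteins such as Isl1, were higher in prefrontal cortex, by 1.42 and 1.45 (adjusted p 4.5e-20 and 8e-17). Without prefrontal replicates 1, 2, 6 and 19 the values were −4.30 for Rarb, −4.47 for Rxrg, −3.55 for Foxo1, −2.92 for Pbx3, 1.46 for Mef2c and 1.42 for Ldb2.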

How the data were processed

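The authors deposited a single table holding, for every gene, its CPM (counts scaled to library depth) in 79 libraries of RNA bound to tagged ribosomes. Per the labels' protocols, RNA was amplified with the Ovation RNA-Seq V2 kit and sequenced as paired 50-base reads. Trim Galore 0.4.2, cutadapt 1.9.1, FastQC, HISAT2 and build GRCm38 were used, per the submitters' processing notes. The counting tool, its annotation, its use of strand and its filters are not given in the sources used here. Of the reads of a library, 31.0% to 40.2% were in listed genes. The deposited values were whole multiples of 1 step in each library (100% within a tolerance of 0.05 read), so read numbers were recovered and used for depth and for an alternative test.

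Members and lists were chosen with earlier results of these data known. Groups were taken from the labels, and replicates were numbered in order and pair nothing. Tests used limma 3.58.1 (R 4.3.3, empirical Bayes with a trend) on log2(CPM + 0.5), keeping a gene if the number of libraries with 1 CPM or more reached the size of the smaller group, 2 groups at a time, or the 4 striatal groups for the difference between regions. The p-values are two-sided and adjusted by Benjamini-Hochberg over all genes tested, with a threshold of 0.05, and a fold on this scale understates the change of low genes. The script was tested on simulated data. Some listed genes are not reported here and were left out of their lists' counts and sums. Relations used permutation tests (scipy 1.17.1). The alternatives were pseudocounts of 0.1 and 1, no filter, 3 other scalings, EM libraries only, covariates for the name code or for the percentage of reads in genes, edgeR 4.0.16 on recovered reads, and leaving out each library in turn. Named genes were all 10 members, listed genes called at 2-fold or more or on which a result turns (genes that share exons with members, and markers), and the 2 closest profiles of each member. Upstream bases were printed only outside annotated exons of the gene, the windows of the other members were searched for motifs but are not printed, and protein sequences were not used here.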

Additional observations from a re-analysis of the deposited data

Results flagged for a closer look

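The D1 minus D2 difference of 3 genes differed between dorsal and ventral striatum by the test of the difference itself (limma, Benjamini-Hochberg). For Ebf1 it was larger in dorsal striatum by 1.74 on the log2 scale (adjusted p 2.01e-05), for Ikzf1 by 1.72 (adjusted p 1.82e-05), and for Sp9 the value was −1.10 (adjusted p 5.47e-07). Leaving out each of 60 libraries in turn moved these between 1.64 and 1.83 for Ebf1, 1.65 and 1.82 for Ikzf1 and −1.15 and −1.05 for Sp9, with 0 calls lost. Ikzf1 passed the filter on low values only through D1 dorsal striatum, the group where it was high, which favoured its value, and without the filter its adjusted p was 4.53e-05 (limma), while edgeR on recovered reads did not call it (1.66, adjusted p 0.0655).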

How the results depend on the processing

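The number of these genes called in each comparison stayed within 1.5 times its value in 84 of 84 alternatives listed at the outset. Where nearly all genes tested were called, that number could hardly rise, and some losses would still pass this rule. Changes of sign were counted only for values called in either fit, and 0 were found. Values called in neither fit did change sign, such as that of Meis2 between the regions in D1 (−0.12 to 0.07). For single genes, 585 of the alternatives to a called value kept the call and 15 lost it. Of those to a value not called, 199 left it so and 5 gained a call. Each gene concerned is named in the report with the settings, apart from the following. The regional call of Foxp2 in D2 was also lost with no filter (−0.39, adjusted p 0.0579, limma) and quantile normalization (−0.30, adjusted p 0.089, limma). It was lost too within EM libraries (−0.38, adjusted p 0.201, limma) and with a covariate for the percentage of reads in genes (−0.17, adjusted p 0.152, limma). Its main value was −0.39. The D1 minus D2 call of Zfp503 in ventral striatum was lost with either covariate (−0.19 and −0.07). The D1 minus D2 call of Bcl11b in ventral striatum appeared when any of 4 libraries was left out, as its regional call in D1 did for 6 libraries. Within OdP libraries alone, chosen after seeing the data, 3 genes in place of 6 were called between the regions in D2 libraries, with 8 and 5 libraries left. The calls lost were those of Isl1 (−0.60, adjusted p 0.156, limma), Sp9 (0.36, adjusted p 0.0666) and Foxp2 (−0.39, adjusted p 0.05003). Without replicate 13 of D1 dorsal or replicates 1 and 2 of D2 dorsal striatum, also chosen after seeing the data, each number called was within 1.5 times its value. Over all genes, 2871 calls between receptors in dorsal striatum became 1389 within EM libraries and 1658 with the name code as a covariate, 5443 calls in ventral striatum became 1218 with the covariate for the percentage of reads, and 313 calls for the difference between regions became 480 with the name code. With edgeR on recovered reads the calls numbered 2966, 5370, 3245, 2682, 6591, 7287 and 300, in the order dorsal and ventral D1 against D2, region in D1 and D2, prefrontal against dorsal and ventral, and difference between regions. Scaling to reads in listed genes moved the calls higher in D1 from 1424 of 2871 to 1710 of 2865 in dorsal and from 2751 of 5443 to 3702 of 5599 in ventral striatum. No paired analysis was made. The library names give 1 number shared between groups (in D1 dorsal and D1 ventral striatum). Libraries with neighbouring names were not paired, since the labels do not say that they share mice.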

Other observations

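Of 9 listed factors of the embryonic ganglionic eminence, 3 to 5 passed the filter in each comparison. Dlx1 and Dlx2, homeodomain genes of early GABA neurons, were lower in dorsal than ventral striatum in both receptors. Dlx1 had medians of 3.19 CPM in D1 dorsal and 9.17 CPM in D1 ventral striatum (log2 difference −1.44, adjusted p 3.6e-07, limma) and of 2.26 and 8.99 CPM in D2 (−1.66, adjusted p 7.6e-10). Dlx2 had medians of 0.317 and 2.38 CPM in D1 (−1.79, adjusted p 1.3e-13) and of 0.726 and 2.55 CPM in D2 (−1.40, adjusted p 3.9e-08). Dlx2 reached 1 CPM in 0 of 15 D1 dorsal and 2 of 16 D2 dorsal libraries, against 15 of 15 and 13 of 14 ventral ones, and so passed the filter through the ventral groups, where it was high. Markers of GABA interneurons moved with region too. In D2, 4 of 5 tested were lower dorsally (Lhx6 by −1.58 and Nos1 by −1.57 among them), with summed CPM of 7.03 to 29.6 in dorsal (median 14.1) and 24.6 to 46.9 in ventral striatum (median 33.7). In D1, Lhx6 (−0.82) and Nos1 (−1.02) were lower dorsally while Sst, Npy and Pvalb were higher. The part of these markers in the Dlx1 and Dlx2 values was not tested. Tshz1, a zinc finger gene of the cofactor list, was lower dorsally too, with D1 medians of 24.5 and 51.0 CPM (−1.15, adjusted p 1.7e-12). In prefrontal cortex the Dlx genes split. Dlx1 was higher than in D1 dorsal striatum (median 47.9 CPM, log2 difference 3.58, adjusted p 9e-21), while Dlx5 (5.93 CPM, −1.52, adjusted p 3.5e-13) and Dlx6 (1.05 CPM, −2.77, adjusted p 1.6e-22) were lower. Dlx2 was higher (1.80, adjusted p 7.1e-15). Dlx2 reached 1 CPM in 0 of 15 D1 dorsal libraries and passed the filter through prefrontal cortex. Without prefrontal replicates 1, 2, 6 and 19 the values were 3.64 for Dlx1, 1.84 for Dlx2, −1.55 for Dlx5 and −2.77 for Dlx6. Against D1 ventral striatum, with all libraries, the values were 2.14 for Dlx1, 0.01 for Dlx2, −2.26 for Dlx5 and −2.61 for Dlx6. Of these, only the Dlx2 value was not called. GABA interneuron markers were highest in prefrontal cortex, as given in the report, and their part in the Dlx1 level was not tested.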
